A study of Homo sapiens with 6 samples.

Results

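The peaks described here are the genomic regions that were called in the first CRLM1 pull-down over its LacZ control and not over its Input control. They were selected on the calls themselves: a peak of the replicate 1 LacZ list on chromosomes 1 to 22 or X was kept if it shared no base with any peak of the replicate 1 Input list. The rule kept 5612 of 10308 peaks (54.4%, Wilson 95% interval 53.5 to 55.4%). The 4696 other peaks of the list, called over both controls, served as the comparison. Another 4621 peaks were called over Input only.

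CRLM1 is the name the study gives to the long noncoding RNA LINC01767, and the cells were HCT116, an established human colorectal carcinoma line with no treatment or genetic change named in the labels for these libraries. Chromatin isolation by RNA purification (ChIRP) was used: formaldehyde-crosslinked, sonicated chromatin was captured with biotinylated DNA probes against CRLM1 (CRLM1_IP), captured in the same way with probes against bacterial LacZ RNA (LacZ), or left without capture (Input). Each of the 3 groups had 2 libraries, and the labels do not say whether these came from separate cultures. By the names of the deposited lists, peaks were called for each pull-down library over the Input and over the LacZ library of its own number, which gave 4 lists with 36753 peaks on chromosomes 1 to 22 and X. Because each list compares 1 library with 1 other, no test between conditions was possible, and read depth was unknown from the peak lists. All intervals cover counting error over peaks only, and peaks of 1 library are not replicates.

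In ChIRP the probes hybridise to the RNA, and DNA crosslinked near it is carried along. A LacZ capture shares the beads, the hybridisation and the washes with the pull-down, whereas Input DNA shares only the crosslinking, shearing and sequencing. Several kinds of genomic element appear below. CpG islands are GC-rich stretches that keep their CG dinucleotides and mark many gene starts. Transfer RNA genes are short genes transcribed by RNA polymerase III, and Alu elements are abundant repeats that derive from the RNA of the signal recognition particle and often end in a run of A.

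The rule turned on the Input call, and some peaks lay close to its edge. All 4696 comparison peaks had the same start and end in both lists, and 389 of them had an Input score under 51, close to the floor of 50.00. The Input scores of the comparison peaks just inside the Input list were 50.00 for a peak in an intron of CAMK2D and 50.01 for a peak in an intron of DST. Their scores over LacZ were 52.82 and 55.81. Among the LacZ-only peaks, 36 lay under 1 kb from an Input peak and 331 under 10 kb. The nearest was 5 bp from an Input peak on chromosome 9 and had a score of 67.15, and the next lay 28 bp away, upstream of S1PR4, a sphingosine phosphate receptor, with 63.14. The median LacZ-only peak was 143.8 kb from the nearest Input peak.

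Sequences from the plus strand of GRCh38 show what the peaks held. The first 3 are the strongest LacZ-only peaks at a tRNA gene outside UTRs and coding exons, with the bases of the tRNA gene in capitals.
TRY-GTA1-1, a tyrosine tRNA gene, chr6:26568704-26569003: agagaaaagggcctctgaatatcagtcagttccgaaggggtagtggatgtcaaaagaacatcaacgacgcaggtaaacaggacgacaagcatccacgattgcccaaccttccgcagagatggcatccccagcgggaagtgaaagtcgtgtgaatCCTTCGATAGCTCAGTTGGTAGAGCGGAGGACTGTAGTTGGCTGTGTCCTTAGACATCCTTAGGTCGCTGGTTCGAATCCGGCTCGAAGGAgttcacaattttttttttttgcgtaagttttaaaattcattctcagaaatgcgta
TRR-ACG2-1, an arginine tRNA gene, chr3:45688791-45689090: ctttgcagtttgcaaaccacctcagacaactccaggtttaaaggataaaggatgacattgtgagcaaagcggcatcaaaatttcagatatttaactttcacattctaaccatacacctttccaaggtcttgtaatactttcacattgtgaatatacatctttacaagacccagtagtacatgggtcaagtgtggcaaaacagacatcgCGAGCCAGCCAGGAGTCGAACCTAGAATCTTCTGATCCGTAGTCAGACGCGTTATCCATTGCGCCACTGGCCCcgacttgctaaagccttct
TRA-TGC3-1, an alanine tRNA gene, chr5:181206717-181207006: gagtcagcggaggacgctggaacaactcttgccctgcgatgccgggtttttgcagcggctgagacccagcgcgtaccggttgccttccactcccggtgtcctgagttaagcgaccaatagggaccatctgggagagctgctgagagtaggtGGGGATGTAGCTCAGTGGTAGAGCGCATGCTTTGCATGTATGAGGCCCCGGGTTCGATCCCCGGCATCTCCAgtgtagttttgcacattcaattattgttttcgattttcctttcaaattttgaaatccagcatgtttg

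The next 3 are central stretches of 2 LacZ-only peaks at gene starts, whose peaks share at least 1 base with a strict CpG island, and of a strong one between genes, with CG dinucleotides in capitals.
Upstream of WNT11, chr11:76211466-76211665: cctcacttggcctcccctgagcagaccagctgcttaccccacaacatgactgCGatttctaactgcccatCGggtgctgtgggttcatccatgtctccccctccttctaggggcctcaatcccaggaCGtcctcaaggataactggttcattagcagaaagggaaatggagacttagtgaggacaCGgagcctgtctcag
Upstream of WSB1, chr17:27293587-27293786: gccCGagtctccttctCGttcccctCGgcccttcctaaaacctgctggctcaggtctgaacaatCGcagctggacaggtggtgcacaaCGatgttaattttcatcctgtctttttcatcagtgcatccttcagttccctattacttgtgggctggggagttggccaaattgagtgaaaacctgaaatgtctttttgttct
Between genes near SPRY4, chr5:142249274-142249473: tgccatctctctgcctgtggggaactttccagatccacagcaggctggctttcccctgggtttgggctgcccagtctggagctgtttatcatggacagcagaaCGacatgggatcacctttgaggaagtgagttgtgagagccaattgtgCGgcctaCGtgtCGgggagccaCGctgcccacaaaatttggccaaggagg

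For comparison, the 2 strongest peaks over both controls that lay between genes or in introns were tandem repeats, with AACC or GGTT runs of at least 4 units in capitals.
Peak with a score of 339.95, chr11:69214431-69214630: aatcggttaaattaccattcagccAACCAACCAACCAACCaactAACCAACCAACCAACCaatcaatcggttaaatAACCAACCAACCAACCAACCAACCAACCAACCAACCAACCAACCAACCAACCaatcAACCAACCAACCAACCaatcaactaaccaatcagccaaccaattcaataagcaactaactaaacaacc
Peak with a score of 254.51, chr5:31364096-31364295: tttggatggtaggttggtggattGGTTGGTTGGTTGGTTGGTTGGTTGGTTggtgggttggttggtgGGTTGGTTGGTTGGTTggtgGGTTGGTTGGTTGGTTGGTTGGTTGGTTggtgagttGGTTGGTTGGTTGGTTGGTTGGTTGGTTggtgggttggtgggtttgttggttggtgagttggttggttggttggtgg

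LacZ-only peaks were weaker than the peaks over both controls. The score was given by the peak caller and has no stated scale, with 50.00 as the lowest value in the list. Its median was 55.8 among LacZ-only peaks, with a range of 50.00 to 152.98, and 61.0 among peaks over both controls, with a highest value of 1467. In the band from 50 to 55, 66.8% of the list's peaks were LacZ-only, and in the band of at least 100 the share was 20.3% (43 LacZ-only peaks and 169 others). Widths were alike, with medians of 397 bp and 392 bp. These values come from the calls that chose the peaks and are given as a description.

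GC content set the LacZ-only peaks apart. Their median GC content was 44.1%, with the middle 50% of peaks between 39.1 and 48.6%. The median was 38.1% in peaks over both controls, 37.7% in peaks over Input only and 40% in 29076 windows of 400 bp tiled every 100 kb along the same chromosomes. LacZ-only peaks thus lay above the tiled genome and both other sets below it. The difference of 5.98 percentage points between LacZ-only peaks and those over both controls had the same sign on 23 of 23 chromosomes, from 3.13 points on chromosome 13 to 8.18 points on chromosome 19. It was 4.82 points when 5 kb around each midpoint were used, so the surrounding sequence differed too. The share of list peaks that were LacZ-only rose with GC content, from 30.9% of peaks under 35% GC to 88.7% of peaks at 50% GC or more.

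**Figure D1:**
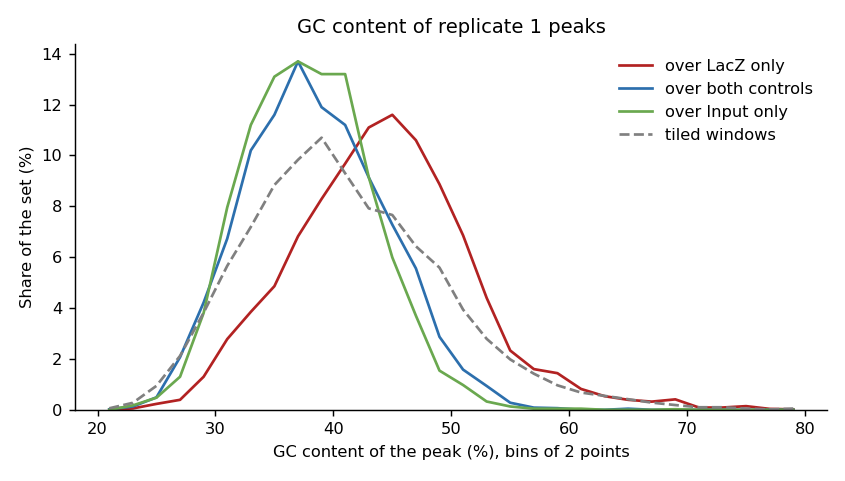
GC content of replicate 1 peaks (x axis, %, in bins of 2 points) against the share of each set (y axis, %), for LacZ-only peaks (red), peaks over both controls (blue), Input-only peaks (green) and tiled genome windows (grey, dashed). The curve of the LacZ-only peaks lies to the right of the others, with medians of 44.1, 38.1, 37.7 and 40% in that order.

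In replicate 2 the direction depended on the window measured. Its LacZ list held 363 peaks, and only 19 of them (5.23%) shared no base with its Input list. Those 19 had a median GC content of 37.4% against 39.9% for the 344 others, the opposite direction. The middle 50% of the 19 lay between 35.4 and 41.9%. Over 5 kb around each midpoint the medians were 40.5% and 39.4%, the direction of replicate 1. The replicate 2 lists therefore did not settle the direction of a GC difference, over far fewer LacZ-only peaks.

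LacZ-only peaks were spread unevenly over the chromosomes. Their share of the list was lowest on X (24.3%, 18 of 74 peaks), followed by chromosome 13 (41.9%), chromosome 4 (43.0%) and chromosome 5 (44.2%). The intervals of these 3 autosomes overlap each other and lie above that of X. It was highest on chromosome 22 (81.5%, Wilson 95% interval 74.1 to 87.1%) and chromosome 19 (81.2%, 75.4 to 85.9%), which did not differ beyond counting error, then chromosome 17 (74.7%) and chromosome 16 (71.0%). Over the 23 chromosomes the share went with the GC content of the chromosome (Pearson r = 0.907, Spearman correlation 0.942; r = 0.857 without chromosomes 19 and 22). The points share the same 3 libraries and no p is given. LacZ-only peaks per Mb increased with chromosome GC (r = 0.777) while peaks over both controls decreased (r = -0.609). Chromosome X had few peaks of either kind, with 0.116 LacZ-only peaks per Mb and 0.362 peaks over both controls per Mb. On chromosome 5, of like GC content, the densities were 2.29 and 2.89 per Mb, the latter the highest of any chromosome. On chromosomes 3 and 6 (39.7 and 39.6% GC) there were 1.65 and 1.66 LacZ-only peaks per Mb. Peaks over both controls stood there at 1.73 and 1.58 per Mb. In windows of 10 Mb with at least 20 peaks, the LacZ-only share ran from 13.9% (5 of 36 peaks, on chromosome 3) to 94.9% (37 of 39, on chromosome 1).

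**Figure D2:**
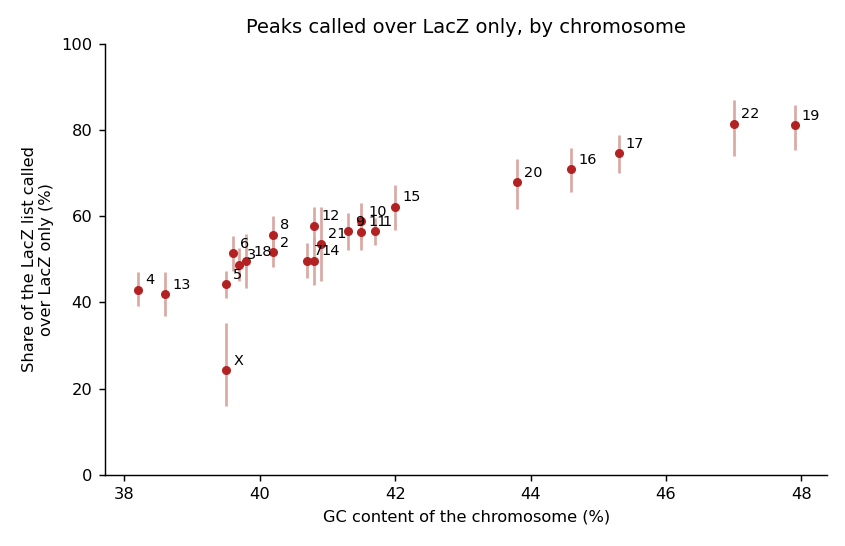
Share of the replicate 1 LacZ list called over LacZ only (y axis, %, with Wilson 95% intervals) against the GC content of the chromosome (x axis, %), 1 point per chromosome. The share climbs from about 40% on chromosomes 4 and 13 to 81.5% on chromosome 22, and X lies below the others at 24.3%.

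Gene starts and CpG islands were more frequent among the LacZ-only peaks than in either comparison. CpG islands, defined by a window of at least 200 bp, GC above 50% and an observed-to-expected CpG ratio above 0.6, shared a base with 15.3% of LacZ-only peaks and 7.03% of peaks over both controls (difference 8.31 points, Newcombe 95% interval 7.12 to 9.51). Without repeat masking this definition also takes in Alu elements. Under a stricter one (500 bp, 55%, 0.65) the shares were 4.21% and 0.405%, against 1.88% of tiled windows. A midpoint within 1 kb of the start of a protein-coding gene was found for 2.89% of LacZ-only peaks, 0.341% of peaks over both controls, 0.195% of Input-only peaks and 1.13% of tiled windows. The share was higher in LacZ-only peaks than in peaks over both controls on 21 of 23 chromosomes. Within 5 kb upstream of any gene start the shares were 11.2% and 6.39% (difference 4.86 points, 3.77 to 5.94).

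The strongest LacZ-only peak at a protein-coding start lay 115 bp upstream of SACM1L, which encodes a phosphoinositide phosphatase, and covered the arginine tRNA gene shown above (score 112.51). A peak of score 111.28 covered both the end of RNASEK and the start of C17orf49. A peak of score 104.85 lay 830 bp upstream of WNT11, a Wnt ligand, and another of 107.42 lay in introns of TUT1, which encodes a uridylyltransferase of U6 snRNA, and of an overlapping gene. The remaining 6 of the 10 strongest had scores of 83.94 to 88.78 and lay at NXF1, the mRNA export receptor, WSB1, BICRAL, MTF1, a metal-responsive transcription factor, TMEM259 and GPR142. The peak at TMEM259 covered RNU6-2, a U6 snRNA gene. Of these 10, 8 shared at least 1 base with a strict CpG island, and none shared a base with a replicate 2 peak.

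The ends of protein-coding genes carried a narrower excess. This window was chosen after the strongest peaks had been seen. The last 500 bp of a protein-coding gene held 78 LacZ-only peaks (1.39%), 9 peaks over both controls (0.192%), 5 Input-only peaks (0.108%) and 0.358% of tiled windows. In the 500 bp before that window there were 28 LacZ-only peaks, and in the 500 bp after the gene end 31. Among peaks over both controls the corresponding counts were 6 and 8. More broadly, 3′ UTRs held the midpoint of 3.67% of LacZ-only peaks and 1.21% of peaks over both controls, and 5′ UTRs 0.944% and 0.192%.

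**Figure D3:**
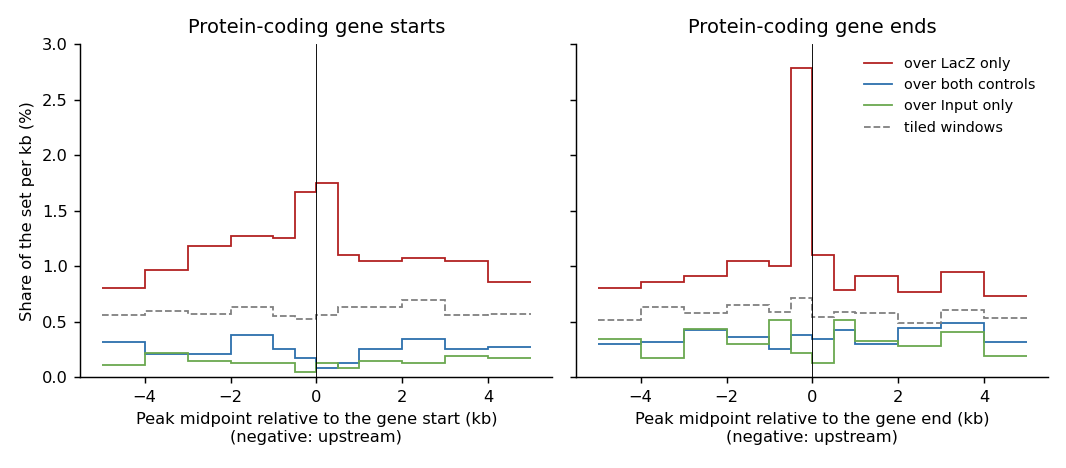
Position of peak midpoints relative to the nearest protein-coding gene start (left) and end (right; x axes, kb, negative upstream) against the share of each set per kb (y axis, %), with 500 bp bins within 1 kb and 1 kb bins beyond. LacZ-only peaks (red) reach 2.78% per kb in the last 500 bp of genes and 1.75% per kb in the first 500 bp after gene starts, where peaks over both controls (blue) stand at 0.383 and 0.0852% per kb.

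Of the 10 strongest LacZ-only peaks, 5 lay in that last 500 bp. The strongest of all (score 152.98, chr17:81867215-81868347, 1133 bp) lay at the end of ARHGDIA. The next (142.43, 358 bp) lay in the last part of GPX4, the glutathione peroxidase that reduces lipid peroxides. A peak of score 133.60 covered the end of VIM, which encodes vimentin, an intermediate filament protein of mesenchymal cells, and had a GC content of 30.7%. One of score 130.39 lay at the end of SHC1, a signalling adaptor, and inside PYGO2, a Wnt coactivator. One of score 130.19 lay at the end of PARK7, a redox-sensitive chaperone. Further down, peaks at gene ends lay at GSTP1, a glutathione transferase (111.30), SOD1, the cytosolic superoxide dismutase (102.24), UCHL1, a deubiquitinase (102.02), and CCN2, a secreted matrix protein (98.07). None of the 10 strongest gene-end peaks shared a base with a replicate 2 peak.

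The 5 other peaks among the 10 strongest LacZ-only peaks lay elsewhere. One of score 137.40 lay between genes 22420 bp from ESRP1, an epithelial splicing regulator. The one near SPRY4, a Sprouty inhibitor of growth factor signalling, had a score of 129.41, and one in an intron of HPD, an enzyme of tyrosine breakdown, had 118.66. The other two, of equal score (117.38), lay upstream of GNB1, a G protein subunit gene, and in an intron of ELOF1, a transcription elongation factor gene.

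Transfer RNA genes were covered by peaks of every replicate 1 set. These were singled out after the peaks had been seen. Of 443 tRNA genes in RefSeq on these chromosomes, 25 were touched by 23 LacZ-only peaks (0.410% of them), 16 by 15 peaks over both controls (0.319%) and 14 by 12 Input-only peaks. The first 2 shares differed by 0.0904 points, with an interval of -0.158 to 0.330, so no difference was detectable. In the tiled windows the share was 0.00344%. The 5 strongest of the 23 LacZ-only peaks ranked 15, 17, 18, 21 and 39 among all LacZ-only peaks, with scores of 102.13 to 113.36, and the other 18 had scores of 50.63 to 72.22. One of the latter (69.00) lay at a leucine tRNA gene 120 bp upstream of POLR3E, which encodes a subunit of RNA polymerase III. Another (60.38) lay at TRU-TCA1-1, a selenocysteine tRNA gene in an intron of ERCC1. A median of 11.2% of the 24-base words in these 23 peaks had another copy in the genome, so most of their sequence was unique.

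Recurrence in replicate 2 was rare. Of the whole LacZ list, 0.718% of peaks shared a base with a replicate 2 peak over Input, and 0.0582% with one over LacZ. Of the 5612 LacZ-only peaks, 29 (0.517%, Wilson 95% interval 0.360 to 0.741%) were found again over Input, against 45 of 4696 (0.958%). The difference was -0.442 points (-0.799 to -0.112), and -0.835 points under the GC weighting described below. Of the Input-only peaks, 2.36% were found again over Input, the control that the rule required LacZ-only peaks to miss. Over LacZ 2 LacZ-only peaks and 4 others were found again, a difference of -0.0495 points with an interval of -0.186 to 0.0581. Within 10 kb of a replicate 2 peak over Input the shares were 10.9% and 15.0%. The replicate 2 list over Input held 16765 peaks that covered 6924 kb. The shares that randomly placed peaks would reach were not computed. A peak found again can therefore not be told apart here from an overlap by position alone. Of the 29, 4 lay at a tRNA gene (13.8%, against 0.410% of all LacZ-only peaks), and of the 45, 1.

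The LacZ-only peak at TRY-GTA1-1 (113.36) was also called in replicate 2 over Input, with a score of 142.41, and over LacZ, with 70.00. The other one found in both replicate 2 lists lay in the lncRNA gene LINC02160 on chromosome 5 (87.93 in replicate 1, 127.76 and 78.63 in replicate 2). A peak over 3 tRNA genes had its midpoint in a 3′ UTR of CTC1, which encodes a telomere maintenance protein. This peak had 112.61 and was found again with 94.36. The tRNA peak in SLC47A1 had 62.67 and was found again with 88.34, and the one at TRR-TCT1-1, named for its tRNA gene and not for its rank, had 50.63 and was found again with 163.04. Of the others among the 10 strongest found again, EYA2, a transcriptional coactivator, had 99.10 in an intron, TBCE, a tubulin chaperone, 91.05, RNF6, a ubiquitin ligase, 62.55, ANXA5, a phospholipid-binding annexin, 62.25, and OSCP1 61.53. The last of the 10 had 65.49 and lay 427449 bp from NR2F2, its nearest protein-coding gene. The peaks in EYA2, TBCE and OSCP1 matched RN7SL1, the Alu-related RNA described below. Those in ANXA5 and RNF6 and the one nearest to NR2F2 did not. The RNF6 peak overlapped the pseudogene ATP8A2P3, and 69.1% of its 24-base words had another copy in the genome. Of the 29, 11 had a score of at least 60, and 32 of the 45.

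Resemblance to an annotated LINC01767 transcript was more frequent among LacZ-only peaks but went with their GC content. No LacZ-only peak matched any of the 9 capture probes, which allows a share of up to 0.0535%, and 1 peak over both controls did, at the LINC01767 gene. A match to a LINC01767 transcript was found in 1082 LacZ-only peaks (19.3%), 11.6% of peaks over both controls and 12.2% of tiled windows (E value of at most 0.01; difference 7.65 points, 6.27 to 9.03). All 1082 matched 1 of the 9 annotated transcripts, with a median start at base 1457 and a median end at base 1526 of 1568 and a median identity of 78.0%. In 1081 of them a match shared at least 1 base with the stretch between these 2 positions. The study describes CRLM1 as a shorter RNA than this transcript of 1568 bases. Whether that RNA includes the stretch was not examined.

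Of the 1082 peaks, 74.0% also matched RN7SL1, the RNA of the signal recognition particle from which Alu elements derive. RN7SL1 matches of at least 40 bases were found in 28.0% of LacZ-only peaks, 18.1% of peaks over both controls, 13.6% of Input-only peaks and 14.3% of tiled windows. When the peaks over both controls were weighted to the GC bands of the LacZ-only peaks, the difference in LINC01767 matches fell from 7.65 to 0.0226 points and that in RN7SL1 matches from 9.97 to 0.229 points. This weighting was added after the data had been seen. In the band from 45 to 50% GC, RN7SL1 matches stood at 42.9% in both sets.

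The same weighting left the gene-end and gene-start differences in place, but it did not match GC content within its open top band. That band, of 50% GC or more, ran up to 82.6% GC in LacZ-only peaks and 65.3% in peaks over both controls. It held 114 of the 162 LacZ-only peaks at gene starts and 44 of the 78 at gene ends. Among its 140 peaks over both controls, 2 lay at gene starts and 0 at gene ends. For the last 500 bp of protein-coding genes the difference was 1.20 points before and 1.25 points after, and for gene starts 2.55 and 2.25 points. The gene-end share was higher in LacZ-only peaks in each of 5 GC bands, from 0.816% against 0.364% under 35% GC to 4.01% against 0 of 140 at 50% GC or more. The intervals of the difference included 0 in 2 of the bands, under 35% GC (-0.221 to 1.55 points) and from 45 to 50% GC (-0.498 to 0.941 points, 8 peaks against 1). The count of 0 of 140 allows a share of up to 2.14%. At gene starts the excess lay at high GC, with 10.4% against 1.43% at 50% GC or more (interval of the difference 4.98 to 11.2 points). In every band below 50% GC the interval included 0. From 40 to 45% GC, for example, the shares were 0.876% and 0.528% (-0.37 to 1.03 points). UTR or CDS differed by 3.98 points before and 3.79 points after, and CpG islands by 8.31 and 1.88 points.

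**Figure D4:**
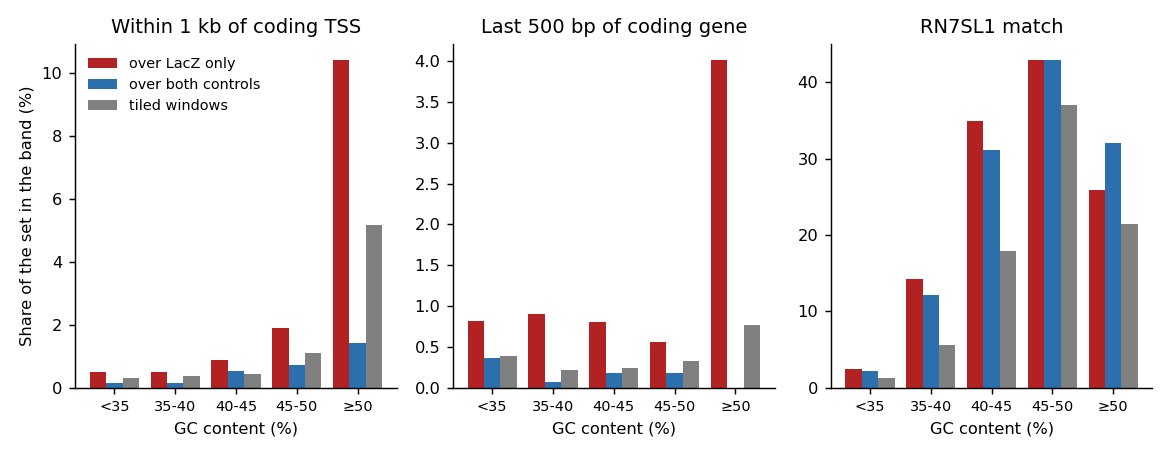
Share of peaks (y axes, %) within 1 kb of a protein-coding start, in the last 500 bp of a protein-coding gene and with an RN7SL1 match, in 5 bands of peak GC content (x axes, %), for LacZ-only peaks (red), peaks over both controls (blue) and tiled windows (grey). Gene ends are higher in red in every band, with intervals of the difference that include 0 under 35% and from 45 to 50% GC. Gene starts are higher in red at 50% GC or more (10.4 against 1.43%), and in every lower band the interval includes 0. RN7SL1 matches are level at 42.9% from 45 to 50% GC.

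Runs of A or T marked peaks of both kinds. They were counted after these peaks at GNB1 and ELOF1, and another of the same score in an intron of BANK1, had been seen. Of the 30 strongest LacZ-only peaks, 7 shared 2 scores, and they were 177 to 260 bp wide. Of the 7, 6 matched another of them in sequence and 5 held a run of at least 12 A or T in the central 200 bases. Such a run was found in 18.8% of LacZ-only peaks, 18.5% of peaks over both controls, 11.9% of Input-only peaks and 4.30% of tiled windows. Peaks under 250 bp wide made up 3.37% of LacZ-only peaks and 7.86% of peaks over both controls, and held a run in 48.1% and 48.0% of cases. AACC or GGTT runs of at least 4 units, as in the comparison peaks shown above, were found in 1 LacZ-only peak and 8 peaks over both controls.

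Of the sequence motifs searched on both strands in the central 200 bases, CCCC was found in 57.1% of LacZ-only peaks, 43.8% of peaks over both controls and 50.8% of tiled windows. C-rich sequences of this kind are bound by hnRNPK, a protein that the study examined with CRLM1. The CCCC shares were not weighted for GC content, which had medians of 44.1, 38.1 and 40% in the same sets. Binding of hnRNPK at these peaks was not tested. At least 3 separate CCCC on 1 strand were found in 7.16%, 2.07% and 6.25%, a subset of the former, and a G-quadruplex pattern (4 runs of at least GGG, 1 to 7 bases apart) in 2.05%, 0.745% and 2.11%. For both of these the LacZ-only share was near that of the tiled windows. Runs of at least 6 GA or CT units (0.695% against 0.575%) and of CA or TG units (1.92% against 1.45%) differed by less than the counting error.

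**Figure D5:**
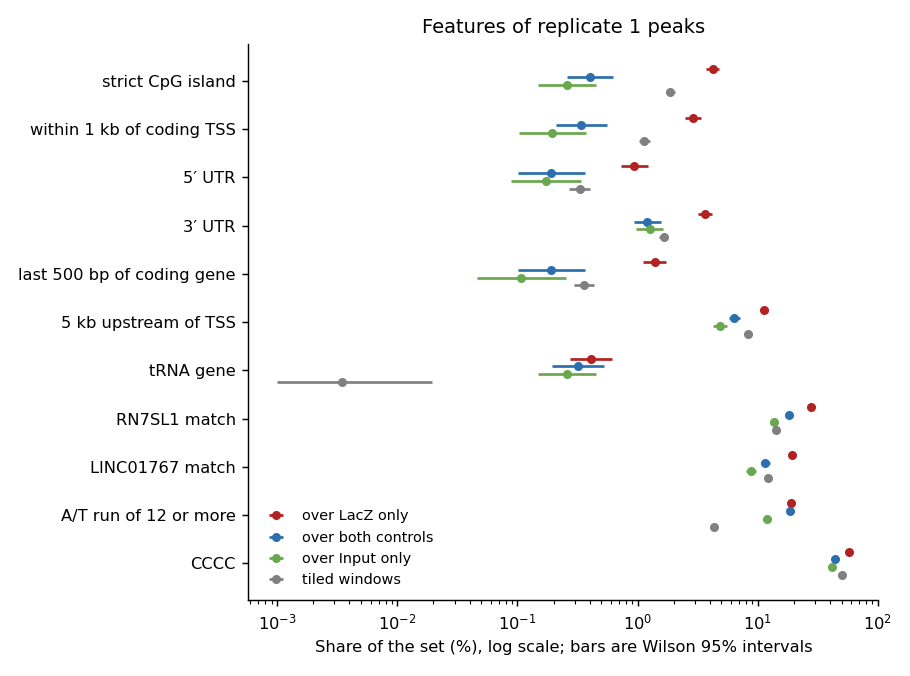
Share of each replicate 1 set and of tiled windows (x axis, %, log scale; bars are Wilson 95% intervals) that held each feature (y axis). LacZ-only peaks (red) stand to the right of the peaks over both controls (blue) for gene starts (2.89 against 0.341%) and gene ends (1.39 against 0.192%), and beside them for tRNA genes (0.410 against 0.319%) and A or T runs (18.8 against 18.5%).

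LacZ-only peaks lay in or within 5 kb upstream of 2950 of 19970 protein-coding genes (14.8%), and peaks over both controls of 1660 (8.31%). Genes with a LacZ-only peak were shorter than those with a peak over both controls, with a median length of 85.4 kb against 158.6 kb. Both medians lay above the 27.5 kb of all protein-coding genes. Of the 322 protein-coding genes of at least 500 kb, 66.1% held a LacZ-only peak and 71.7% a peak over both controls. The most LacZ-only peaks lay in CTNNA3, an alpha-catenin gene of 1851 kb, with 7, followed by SBF2 and CDH18 with 6 each and MARCHF6 and KIAA1671 with 5 each. CDH18 also held 13 peaks over both controls, whereas MARCHF6, an 86.7 kb gene of an endoplasmic reticulum ubiquitin ligase, and KIAA1671 held 0. Per 100 kb, SRSF3, a splicing factor gene of 11.2 kb, led with 3 peaks, followed by PELP1 with 3, MTRR with 4, and MDM4, a p53 inhibitor, and CLIC6 with 3 each. These 5 genes held no peak over both controls.

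The first gene list held genes that the study named as bound, a choice made on these samples and no independent evidence. Of its 6 genes, 1 held LacZ-only peaks (16.7%), 1 a peak over both controls and 3 an Input-only peak. The share over all protein-coding genes was 14.8%, 8.31% and 7.50% for the 3 kinds of peak. The gene with LacZ-only peaks was GALNT18, an enzyme gene of mucin-type glycosylation, with 2, the stronger of which had a score of 115.93. The second list held genes that the study measured or discussed as regulated. Of its 19 genes, VIM (133.60), PLPP3 (62.07) and ZEB1-AS1 (61.65) held 1 each (15.8%, beside 14.8% of all protein-coding and 5.99% of all lncRNA genes, since ZEB1-AS1 is a lncRNA gene). A peak over both controls was held by 3 as well (15.8%, beside 8.31% of protein-coding genes). HOX genes, the body-plan transcription factors, held LacZ-only peaks in 3 of 39 (7.69%) and none over both controls, beside 14.8% and 8.31% of all protein-coding genes. The 3 were HOXB7, HOXB9 and HOXC10, with scores of 53.10 to 58.45. HOX genes are short, with a median length of 4.22 kb against 27.5 kb for all protein-coding genes. Of 95 cadherin genes, 11 held a LacZ-only peak, 11 a peak over both controls (11.6% each) and 29 an Input-only peak (30.5%), beside 14.8%, 8.31% and 7.50% of all protein-coding genes. The cadherin genes with a LacZ-only peak were long, with a median of 426.4 kb. CDH9 had the highest score of these, 75.78, and the peak in CDH13 was found again in replicate 2. Of 73 replication-dependent histone genes, 2 held a LacZ-only peak (2.74%, beside 14.8% of all protein-coding genes). These 2, H2AC17 and H3C12, shared a single peak of 60.62. Histone genes of this list are also short, with a median length of 0.51 kb. Of 1884 snRNA genes, which include many pseudogenes, 32 (1.70%) had a LacZ-only peak within the gene or the 5 kb upstream and 24 (1.27%) a peak over both controls, beside 7.11% and 4.56% of all genes. RNU6-2 (84.11) had the highest score among them. The snRNA genes had a median length of 0.107 kb, against 3.65 kb for all genes.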

How the data were processed

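HCT116 cells were profiled by ChIRP-seq in 6 libraries (CRLM1_IP, Input and LacZ, 2 each). The authors trimmed reads with cutadapt, aligned them to GRCh38 with Bowtie2 and called peaks. The stated method calls CRLM1_IP and LacZ peaks over Input and removes CRLM1_IP peaks that overlap LacZ peaks, whereas the deposited lists are, by their names, of CRLM1_IP over Input and of CRLM1_IP over LacZ, and are described as such. The deposited lists give each peak's position and a score with no stated scale. The methods name MACS2, while the layout and the floor of 50.00 resemble an earlier MACS version. The score is therefore used for order, medians, bands and cutoffs, and not as a measure of enrichment. Scores from different lists are given side by side, but whether their sizes can be compared is unknown. Read counts are not analysed here, so depth is unknown.

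Peaks on chromosomes 1 to 22 and X were used. Overlap meant 1 shared bp. Midpoints were placed on GENCODE release 44 (UTR or CDS first, then other exons, 5 kb upstream of a gene start, introns, intergenic), and tRNA genes came from RefSeq. CpG islands, GC content and motifs were computed from GRCh38 with Python 3.11.15 and pysam 0.24.0. Matches were found with blastn 2.17.0 (word size 11, E value of at most 0.01). Shares carry Wilson and differences Newcombe 95% intervals. There was no hypothesis test. Functions were tested on simulated data. Groups came from sample titles. The peaks named are the 10 strongest, the 10 strongest found again, the 10 strongest at gene starts, those at the edge of the rule, genes by count and density, and the strongest in each gene list. Gene-end peaks and tRNA peaks were named after their values were seen. Sequences in UTRs and coding exons, and some others, are not reported here. The peak rule, the gene lists and the motifs were chosen with earlier results of these data known. Repeat masks were not used here. Alternatives are in the closing section.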

Additional observations from a re-analysis of the deposited data

Results flagged for a closer look

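Outside the chromosomes used above, the replicate 1 LacZ list held 21 peaks, of which 13 shared no base with an Input peak. Of these, 2 lay on the mitochondrial genome, with scores of 193.43 and 404.05, both higher than the strongest LacZ-only peak on the chromosomes (152.98). They drew attention as signal in data that no comparison used. The 3 other lists held 0 mitochondrial peaks. Their source was not tested.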

How the results depend on the processing

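No paired analysis was possible because each list compares 1 pull-down library with 1 control library and no test over samples could be made. Differences below are LacZ-only peaks minus peaks over both controls, in percentage points. Taking the peaks at or above the list's median score changed the LacZ-only share to 43.6% and the differences to 10.2 for CpG islands, 9.13 for LINC01767 matches, 3.43 for gene starts and 1.82 for gene ends. With scores of at least 60 the share was 41.8%, and the differences were 10.6, 9.46, 3.90 and 2.08 in the same order, 6.17 for 5 kb upstream and 4.81 for UTR or CDS. Without chromosome 5 the share was 55.5%. The replicate 2 lists gave a share of 5.23%, and a difference of -2.46 for median GC at peak width. Over their 19 LacZ-only peaks the share differences were -7.24 for CpG islands, -4.91 for 5 kb upstream, -0.581 for gene starts and -0.291 for gene ends. They were -2.72 for RN7SL1, -6.53 for A or T runs, 3.23 for UTR or CDS and 0.413 for LINC01767 matches. The interval of every one of these share differences included 0. It was -13.1 to 12.4 for CpG islands and -2.09 to 16.2 for gene starts, so their signs are not established. Why the replicates differed was not tested. Other definitions gave 3.80 (strict islands), 1.04 (1 kb upstream), 6.33 (any overlap with UTR or CDS), and for recurrence -0.906 within 1 kb and -4.14 within 10 kb. GC weighting, added after the data had been seen, gave 1.88 for CpG islands, 3.40 for 5 kb upstream, 0.0226 for LINC01767 matches, 0.229 for RN7SL1, -0.835 for recurrence and -2.55 for A or T runs. Of the 74 values that did not use the replicate 2 lists, 72 kept the direction of the reported value. These 72 include the settings of the LacZ-only share, a percentage that cannot change direction. The 2 that did not keep it were A or T runs without chromosome 5 (-0.0401) and under GC weighting. The share of bases in masked repeats and its alternatives were not run, since the reference used here carries no repeat mask, and repeated 24-base words and RN7SL1 matches were used in their place. Depth is unknown, so no precision can be given for a single peak, and 68.3% of LacZ-only peaks scored below 60.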

Other observations

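LacZ-only peaks mostly lay far apart, with a median gap of 268.2 kb between neighbours. Only 34 of 5589 gaps were under 1 kb and 190 under 10 kb. The 10 Mb window with the most LacZ-only peaks ran from base 60000001 to 70000000 of chromosome 11 and held 53 of them among 60 peaks of the list. Scores were often tied, and the most frequent one, 54.68, was given to 69 LacZ-only peaks. A mean of 19.2% of the 24-base words in LacZ-only peaks had another copy in the genome, against 16.0% in peaks over both controls and 15.6% in Input-only peaks.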
